A study of Homo sapiens with 4 samples.

Results

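The genes described here are 26 enzymes and regulators of cholesterol and fatty acid synthesis, read step by step along the pathway in the J-gammal human cell line after knockdown of FYB1. They were chosen by symbol, with earlier results of these data known. All 26 were found by their Ensembl identifiers among the 28274 genes of the deposited expression table. RNA sequencing had been done on 4 libraries, 2 labelled FYB1 knockdown, with titles that carry the letters sh, and 2 controls, labelled as receiving no treatment and titled NC. The genotype entry is none for the controls. The labels do not say whether the controls carried a construct, name no vector or hairpin sequence, and do not say if both knockdown libraries carry the same one. Separate cultures are not stated for either group, so each p-value reflects variation among 4 libraries that may be technical repeats. In bulk RNA, fewer cells of a type and less RNA per cell cannot be told apart.

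Cholesterol is built from acetyl-CoA. The mevalonate arm condenses acetyl groups and yields the isoprenoid farnesyl diphosphate, squalene synthase joins farnesyl units, and the cyclised product lanosterol is trimmed to cholesterol. Fatty acids start from the same acetyl-CoA, which ATP citrate lyase releases from citrate in the cytosol. Both branches are switched on by the sterol regulatory element-binding proteins, SREBPs, transcription factors that are held in the endoplasmic reticulum membrane while sterols are plentiful and are released by proteolysis when sterols run low. Dividing T cells depend on both branches for new membrane.

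Values are FPKM, fragments per kilobase of exon scaled by a total for each library, as the authors scaled them. Whole reads were recovered from them for every gene. The libraries held 16693113 and 20251864 reads in FYB1 knockdown 1 and 2 and 17597678 and 17216663 in controls 1 and 2. The totals implied by the scaling were 18436617 and 20480491 in the knockdown libraries and 16648943 and 16789004 in the controls. In relative size (1.02, 1.14, 0.924 and 0.931) these totals matched the median over genes of each library's ratio to the geometric mean of all libraries. They did not follow the sums of reads. FYB1, the adaptor that the knockdown targets, stood at 6.18 and 4.53 FPKM in the knockdown libraries, against 17.6 and 20.1 FPKM in the controls (log2 fold change -1.83 ± 0.15 by limma-voom, adjusted p = 0.000419). Listed T cell markers ranged from abundant to low. The most abundant were TRAC, the constant segment of the T cell receptor alpha chain, and CD3D, a CD3 subunit. TRAC had 406 and 459 FPKM in the knockdown libraries, against 399.6 and 373 FPKM in the controls. CD3D had 224 and 299 FPKM in the knockdown libraries, against 478 and 419 FPKM in the controls. The lowest were LAT and CD2. LAT had 1.64 and 1.499 FPKM in the knockdown libraries, against 0.881 and 0.914 FPKM in the controls. CD2 had 1.78 and 2.36 FPKM in the knockdown libraries, against 3.65 and 3.09 FPKM in the controls. Of 14 measured markers of B, myeloid, NK, liver and fat cells, 13 stayed at or under 0.287 FPKM, and CD79A, a B cell receptor subunit, had 11.1 and 15.8 FPKM in the knockdown libraries, against 24.5 and 21.2 FPKM in the controls. Mitochondrially encoded genes took 4.92% and 5.14% of knockdown reads and 4.09% and 4.03% of control reads. Their part in the results was not tested.

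Messenger RNAs of the pathway were lower in the knockdown libraries in 24 of the 25 genes that could be tested, as group means and by small amounts. The 26 genes together took 0.356% and 0.364% of reads in FYB1 knockdown 1 and 2, against 0.427% and 0.437% in controls 1 and 2. The median log2 fold change of the 25 by limma-trend was -0.29, beside -0.03 over all 13172 genes tested, of which 54.3% had a lower mean. The 25 were also more abundant, with a median level of 20.5 FPKM beside 6.64 FPKM over all genes tested. Among genes averaging 5 FPKM or more, the median fold change was -0.30 for 23 genes of the set and -0.11 over all 7743. The largest differences lay at FDFT1, EBP, SCD and DHCR7. ACAT2 and FASN had nearly equal means in the groups, and SC5D was the single gene tested with a higher mean.

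A pair of tests was run across all genes. By limma-trend on log2(FPKM + 1), for genes averaging 1 FPKM or more, 0 of the 25 passed an adjusted p of 0.05, 0 lower and 0 higher, beside 0.205% of all genes (0.137% lower and 0.0683% higher), and the lowest adjusted p among the 25 was 0.118. With no adjustment, 13 of the 25 had a limma-trend p under 0.05 (23.4% of all genes), 12 of them lower (14.9%) and 1 higher (8.51%). By limma-voom on the recovered reads 5 of the 25 passed an adjusted p of 0.05 (7.74% of all genes). All 5 fell (5.8%) and 0 rose (1.94%), and the counts over the 25 and over all genes moved with the library left out. Both knockdown libraries lay below both controls in 18 of the 25 (34.6% of all genes) and above both in 1 (26% of all genes), and the groups overlapped in 6. Below, fell refers to the limma-voom call, log2 fold changes are knockdown minus control with their SE from limma-voom, and n is 2 libraries per group.

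**Figure D1:**
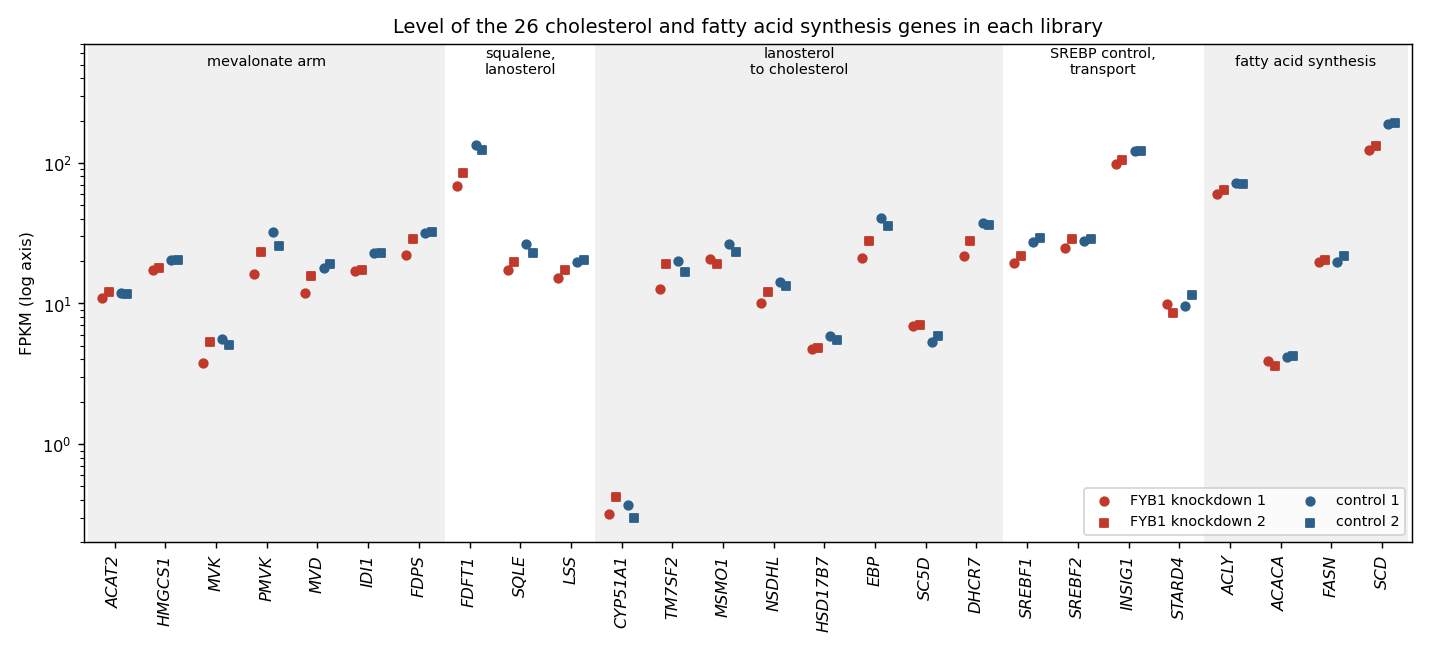
FPKM (log axis) of the 26 genes in each library, ordered along the pathway and shaded by segment; red marks are FYB1 knockdown libraries and blue marks controls. Levels span from under 1 FPKM for CYP51A1 to 193 FPKM for SCD in control 2, and in most genes the red marks sit below the blue ones.

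The first arm runs from acetyl-CoA to farnesyl diphosphate. ACAT2, the cytosolic thiolase that makes acetoacetyl-CoA, had 10.95 and 11.99 FPKM in the knockdown libraries, against 11.9 and 11.7 FPKM in the controls. The groups overlapped, and 52.3% of its exon bases are shared with genes on the opposite strand, SOD2, SOD2-OT1 and TCP1, so that without a stated use of strand its reads cannot be assigned with certainty. HMGCS1, the HMG-CoA synthase, had 17.4 and 17.95 FPKM in the knockdown libraries, against 20.4 and 20.3 FPKM in the controls. Its libraries did not overlap, but the difference was small (log2 fold change -0.20 ± 0.12, limma-voom adjusted p = 0.278).

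Mevalonate is then phosphorylated and decarboxylated. MVK, mevalonate kinase, had 3.75 and 5.28 FPKM in the knockdown libraries, against 5.57 and 5.03 FPKM in the controls. PMVK, the next kinase, had 16.3 and 23.4 FPKM in the knockdown libraries, against 32.3 and 25.5 FPKM in the controls. MVD, the decarboxylase, had 11.9 and 15.7 FPKM in the knockdown libraries, against 18.02 and 18.98 FPKM in the controls. The groups overlapped at MVK and were apart at PMVK and MVD, and in all 3 genes knockdown library 1 was the lowest of the libraries. PMVK and MVD missed the threshold by limma-voom (adjusted p = 0.0834 and 0.0818, log2 fold changes -0.55 ± 0.18 and -0.43 ± 0.14).

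The isoprenoid units are made and joined next. IDI1, the isomerase of isopentenyl diphosphate, had 16.9 and 17.3 FPKM in the knockdown libraries, against 22.8 and 22.7 FPKM in the controls, with both pairs close together and well apart from each other (log2 fold change -0.41 ± 0.12, limma-voom adjusted p = 0.0524). FDPS, farnesyl diphosphate synthase and the target of bisphosphonate drugs, had 22.1 and 28.9 FPKM in the knockdown libraries, against 31.97 and 32.2 FPKM in the controls. Antisense genes share 15% of the exon bases of HMGCS1, 14.8% of those of IDI1 and 18.6% of those of FDPS, and FDPS has 8 annotated pseudogenes, so the reads of all 3 carry some uncertainty. None of the 7 genes of this arm passed the limma-voom threshold. All 7 had lower means (54.3% of all genes did), with a median of -0.33 by limma-trend. Without adjustment, 3 of them had p under 0.05 in limma-trend (23.4% of all genes) and 4 in limma-voom (28.4%).

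Squalene synthase stands at the branch that commits farnesyl diphosphate to sterols, and its gene showed the largest difference of the 26. FDFT1 (chromosome 8, 11795573 to 11839309, plus strand, hg38) had 68.4 and 84.6 FPKM in the knockdown libraries, against 133 and 123 FPKM in the controls. It fell to 0.596 of the control mean (log2 fold change -0.76 ± 0.15, limma-voom adjusted p = 0.02), from 6557 and 9012 reads in the knockdown libraries, against 11558 and 10758 in the controls. SQLE, squalene epoxidase, an oxygen-dependent step, had 17.3 and 19.6 FPKM in the knockdown libraries, against 26.4 and 22.95 FPKM in the controls. LSS, lanosterol synthase, which closes the sterol rings, had 15.1 and 17.4 FPKM in the knockdown libraries, against 19.9 and 20.4 FPKM in the controls. Neither SQLE nor LSS passed by limma-voom (adjusted p = 0.0676 and 0.129), although in each both knockdown libraries lay under both controls. On the log2(FPKM + 1) scale the groups differed by -0.75 at FDFT1, knockdown library 1 minus library 2 was -0.30, and control 1 minus control 2 was 0.11.

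Lanosterol is converted to cholesterol by demethylation, reduction and isomerisation. CYP51A1, the lanosterol demethylase, could not be followed: it had 0.318 and 0.422 FPKM in the knockdown libraries, against 0.369 and 0.299 FPKM in the controls, from 21 and 31 reads in the knockdown libraries, against 22 and 18 in the controls. It was below the filter of 1 FPKM. Another annotated coding gene on the same strand, AC000120.2, covers 79.4% of the exon bases of CYP51A1, and that gene was not analysed here. How reads in shared bases were counted is not stated, so these values may hold only part of the reads of CYP51A1 and are not read as its level. TM7SF2, a sterol reductase, had 12.7 and 18.9 FPKM in the knockdown libraries, against 20.2 and 16.7 FPKM in the controls, and the groups overlapped. MSMO1, the methylsterol oxidase, had 20.7 and 18.99 FPKM in the knockdown libraries, against 26.3 and 23.3 FPKM in the controls. NSDHL, a dehydrogenase of the same demethylation, had 10 and 11.99 FPKM in the knockdown libraries, against 14.3 and 13.2 FPKM in the controls. HSD17B7, its partner ketoreductase, had 4.72 and 4.79 FPKM in the knockdown libraries, against 5.86 and 5.50 FPKM in the controls. In these last 3 genes both knockdown libraries were lower than both controls and none passed (limma-voom adjusted p = 0.127, 0.176 and 0.246). HSD17B7 has 2 annotated pseudogenes, of which HSD17B7P2 had 2.70 and 2.04 FPKM in the knockdown libraries, against 2.39 and 1.98 FPKM in the controls.

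The closing steps held 2 of the 5 genes that fell, and the 1 gene with the opposite sign between them in the pathway. EBP (chromosome X, 48521158 to 48528716, plus strand), the sterol isomerase also known as emopamil-binding protein, had 20.9 and 27.8 FPKM in the knockdown libraries, against 40.8 and 35.8 FPKM in the controls. It fell by 36.3% (log2 fold change -0.66 ± 0.15, limma-voom adjusted p = 0.0303). SC5D, the lathosterol desaturase, had 6.93 and 6.98 FPKM in the knockdown libraries, against 5.32 and 5.89 FPKM in the controls. Both of its knockdown libraries were higher than both controls, but it did not pass (log2 fold change 0.31 ± 0.13, limma-voom adjusted p = 0.147). DHCR7 (chromosome 11, 71428193 to 71452868, minus strand), the final reductase, which is mutated in Smith-Lemli-Opitz syndrome, had 21.7 and 27.9 FPKM in the knockdown libraries, against 37.6 and 36.3 FPKM in the controls. It fell by 32.9% (log2 fold change -0.59 ± 0.14, limma-voom adjusted p = 0.0316), and as at EBP the lowest value was in knockdown library 1.

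**Figure D2:**
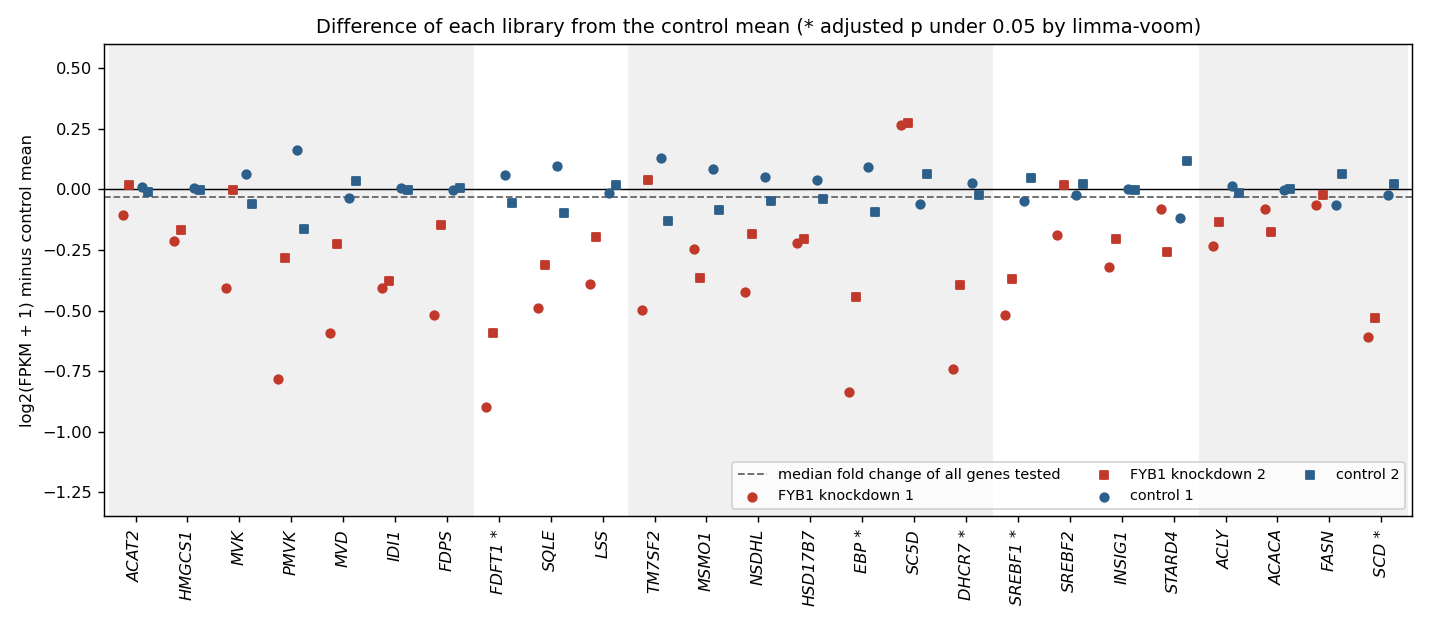
Difference of each library from the control mean on the log2(FPKM + 1) scale for the 25 genes tested, red for FYB1 knockdown and blue for control, with the all-gene median of -0.03 as a dashed line. The knockdown marks lie below 0 for most genes, lie above it in both libraries for SC5D, and knockdown library 1 is below library 2 in 22 of 25 genes.

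Among the regulators, the mRNAs of both SREBP genes differed in how far the groups were apart. SREBF1 (chromosome 17, 17810399 to 17837002, minus strand) had 19.6 and 21.8 FPKM in the knockdown libraries, against 27.5 and 29.4 FPKM in the controls. It fell to 0.726 of the control mean (log2 fold change -0.46 ± 0.12, limma-voom adjusted p = 0.0442). SREBF2, which favours cholesterol genes, had 24.8 and 28.8 FPKM in the knockdown libraries, against 27.9 and 28.9 FPKM in the controls, and the groups overlapped (log2 fold change -0.09 ± 0.13, adjusted p = 0.67 by the same test). The difference between the 2 genes was not tested. INSIG1, the membrane protein that retains SREBPs in the endoplasmic reticulum and is itself an SREBP target, had 97.4 and 105 FPKM in the knockdown libraries, against 122 and 121 FPKM in the controls. STARD4, a carrier of cholesterol between membranes, had 9.84 and 8.60 FPKM in the knockdown libraries, against 9.58 and 11.5 FPKM in the controls. The controls were close together at INSIG1 with both knockdown libraries below them, while at STARD4 the groups overlapped, and neither passed (limma-voom adjusted p = 0.201 and 0.39).

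Promoter sequence is shown for EBP, DHCR7, SCD and SREBF1, the genes that fell and have an entry in the table used, and for SREBF2, whose window held the sterol regulatory element core. The windows are RefSeq promoters of build GRCh38.p14, 250 bases before to 50 after a gene start, written 5′ to 3′ on the strand of the gene. They lie at chrX:48521558-48521857, plus strand, at chr11:71448344-71448643, minus strand, at chr10:100346983-100347282, plus strand, at chr17:17836937-17837236, minus strand, and at chr22:41832855-41833154, plus strand. Capitals mark CCAAT, the box bound by NF-Y, which acts together with SREBPs, or its reverse complement ATTGG, and in SREBF2 also the core TCACNCCAC. The SREBF1 window holds neither and has no capitals. DHCR7 has a second window, chr11:71448994-71449293, minus strand, which is not printed and holds neither of these nor the SP1 box GGGCGG.
EBP: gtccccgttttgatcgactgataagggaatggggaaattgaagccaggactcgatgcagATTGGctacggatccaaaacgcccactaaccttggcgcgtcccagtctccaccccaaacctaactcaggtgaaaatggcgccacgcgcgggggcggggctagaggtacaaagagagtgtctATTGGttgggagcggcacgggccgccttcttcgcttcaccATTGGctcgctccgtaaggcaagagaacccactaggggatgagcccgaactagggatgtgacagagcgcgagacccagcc
DHCR7: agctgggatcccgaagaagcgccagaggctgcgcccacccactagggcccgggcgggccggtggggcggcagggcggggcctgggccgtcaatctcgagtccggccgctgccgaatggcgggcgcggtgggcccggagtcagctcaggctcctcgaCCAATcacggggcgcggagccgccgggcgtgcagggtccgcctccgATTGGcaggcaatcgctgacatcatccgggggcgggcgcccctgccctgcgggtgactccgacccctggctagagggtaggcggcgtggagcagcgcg
SCD: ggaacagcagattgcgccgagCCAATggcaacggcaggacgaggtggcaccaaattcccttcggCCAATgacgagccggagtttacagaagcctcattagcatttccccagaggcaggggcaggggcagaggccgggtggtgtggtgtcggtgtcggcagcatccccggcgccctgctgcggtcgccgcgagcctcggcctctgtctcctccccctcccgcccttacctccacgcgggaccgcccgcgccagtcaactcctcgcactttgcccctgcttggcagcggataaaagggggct
SREBF1: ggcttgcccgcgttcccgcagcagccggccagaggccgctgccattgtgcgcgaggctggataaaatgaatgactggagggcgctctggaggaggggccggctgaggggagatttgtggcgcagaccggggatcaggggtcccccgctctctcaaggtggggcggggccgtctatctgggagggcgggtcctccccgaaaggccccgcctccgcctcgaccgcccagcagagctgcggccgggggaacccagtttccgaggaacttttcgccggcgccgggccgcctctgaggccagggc
SREBF2: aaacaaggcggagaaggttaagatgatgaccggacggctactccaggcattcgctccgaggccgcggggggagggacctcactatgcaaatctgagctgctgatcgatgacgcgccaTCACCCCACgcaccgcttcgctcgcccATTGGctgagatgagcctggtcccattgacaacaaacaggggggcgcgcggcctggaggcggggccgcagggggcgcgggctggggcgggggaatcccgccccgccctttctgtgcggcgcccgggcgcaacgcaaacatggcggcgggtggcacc

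A window was found for 22 of the 26 genes, some with several. Searched on both strands, CCAAT was in at least 1 window of 19 of the 22 genes (86.4%), beside 39.7% of 27305 genes with a window. Counted by window it was in 23 of 30, beside 34.6% of 35116 windows. GGGCGG, the SP1 box, was in 21 of 22 (95.5%), beside 48.3%. The genes compared with the 22 were all those with a window, not matched to them in gene type or level. TCACNCCAC was in 1 of 22, SREBF2, where it begins at base -133 from the gene start and does not overlap the ATTGG at -106, beside 1.39% of all genes. EBP holds 3 CCAAT boxes, and DHCR7 and SCD hold 2 each in the windows printed. The 3 genes without CCAAT in these windows are CYP51A1, PMVK and SREBF1, of which SREBF1 fell and SC5D, the gene with the higher mean, holds the box as the others do. A match describes letters in these windows and is not evidence of binding.

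Of the 4 genes of fatty acid synthesis, 1 fell (5.8% of all genes). ACLY, the citrate lyase that supplies acetyl-CoA to both branches, had 60.2 and 64.5 FPKM in the knockdown libraries, against 71.6 and 70.3 FPKM in the controls (limma-voom adjusted p = 0.35). ACACA, the carboxylase that makes malonyl-CoA, had 3.92 and 3.61 FPKM in the knockdown libraries, against 4.20 and 4.22 FPKM in the controls (limma-voom adjusted p = 0.417). At ACLY and ACACA both knockdown libraries lay below both controls (34.6% of all genes), and neither gene passed. FASN, the fatty acid synthase, had 19.9 and 20.5 FPKM in the knockdown libraries, against 19.9 and 21.8 FPKM in the controls, and its groups overlapped. SCD (chromosome 10, 100347124 to 100364834, plus strand), the stearoyl-CoA desaturase that makes monounsaturated fatty acids, was the most abundant of the 26 and had 124 and 132 FPKM in the knockdown libraries, against 188 and 193 FPKM in the controls. It fell to 0.672 of the control mean (log2 fold change -0.58 ± 0.14, limma-voom adjusted p = 0.0357). The log2 difference between FASN libraries of opposite groups was thus near 0 (-0.05 ± 0.12), while SCD, which acts on its product, was lower by about as much as DHCR7.

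The 5 falls rested on 2 libraries per group, and calls over all genes moved with the library left out, as did those of the 25. By limma-voom the median log2 fold change of the 25 was -0.22 without FYB1 knockdown 1 (-0.02 over all genes). It was -0.43 without FYB1 knockdown 2 (-0.07 over all genes). Without control 1 it was -0.27 (-0.04 over all genes), and without control 2 it was -0.34 (-0.05 over all genes). In these comparisons a single library left in a group is assumed to vary like those of the other group. With all libraries in, 14 of the 25 had an unadjusted limma-voom p under 0.05 (28.4% of all genes), 13 lower (18.1%) and 1 higher (10.3%). The 22 genes in which knockdown library 1 was below library 2 stand beside 58% of all genes, and the median difference from the control mean was -0.41 in library 1 and -0.20 in library 2, while control 1 minus control 2 had a median of 0.01. The direction of the median was therefore shared by both knockdown libraries, and its size was not.

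Library scaling moved some differences across 0, not only the smallest. By limma-trend with the authors' totals INSIG1 was -0.26 and turned with quantile normalization, while ACACA was -0.13 and kept its sign. Scaled by the sum of reads in the table, the median of all genes by limma-trend moved by 0.11 to 0.08, and the median of the 25 genes was -0.16, or -0.24 relative to all genes. With quantile normalization it was -0.16, beside 0.01 for all genes. ACAT2, SREBF2 and FASN had positive fold changes under both scalings, and INSIG1 and ACLY under quantile normalization. By limma-voom 1 of the 25, FDFT1, passed under either scaling (adjusted p = 0.0299 with the sum of reads and 0.0323 with quantile normalization), and the other 4 did not. Over all 13172 genes tested, 461 passed with the sum of reads and 513 with quantile normalization, beside 1019 with the authors' totals. SCD, among the most abundant genes, had a log2 fold change of -0.44 with the sum of reads and -0.28 with quantile normalization. After correction for exon length and GC content the median was -0.26. Across the 25 genes the limma-trend fold change had a Spearman correlation of 0.43 with exon length and -0.58 with mean level, beside 0.45 with exon length and -0.37 with mean level over 10570 protein-coding genes, all of them correlations across genes that share the same 4 libraries. The part of length and level in the result was not tested.

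**Figure D3:**
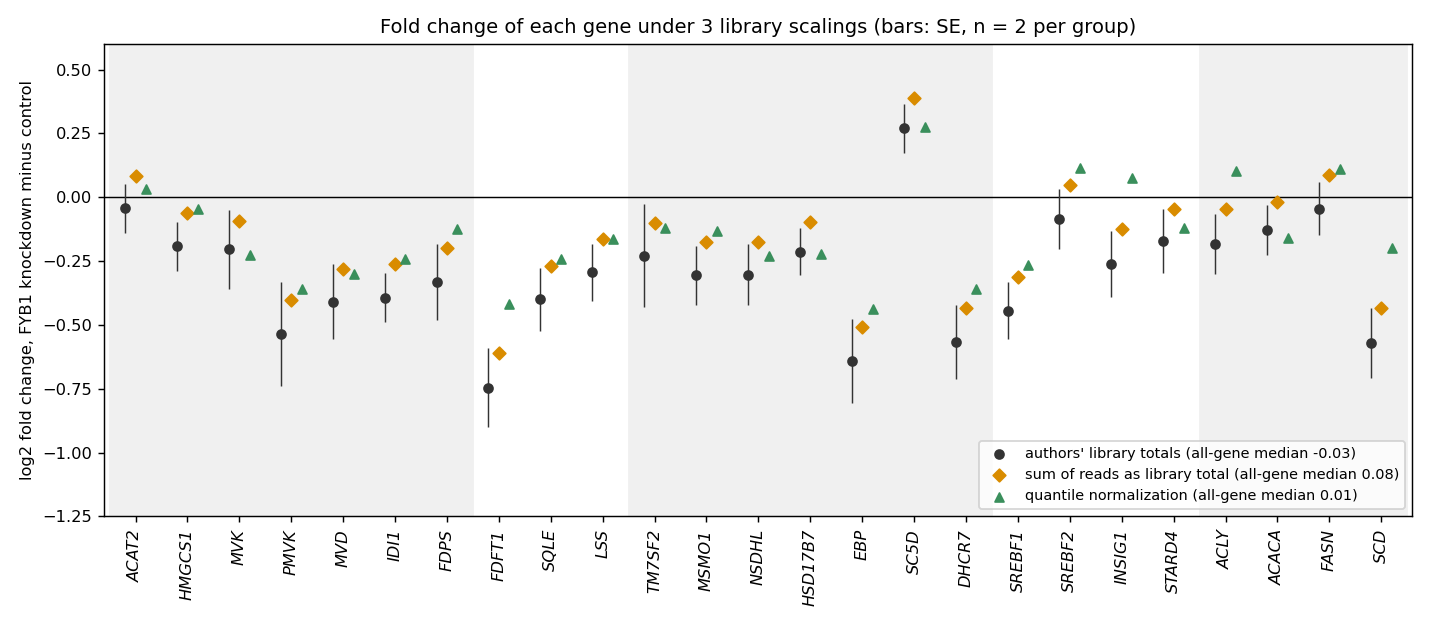
Limma-trend log2 fold change, FYB1 knockdown minus control, of the 25 genes tested under the authors' library totals (black, with SE), the sum of reads (orange) and quantile normalization (green). Most genes are below 0 under all 3, FDFT1, EBP, DHCR7 and PMVK among them. ACAT2, SREBF2 and FASN are above 0 with the sum of reads and with quantile normalization.

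Neighbouring parts of lipid metabolism were read from lists of their own, whose counts stand beside the same shares of all genes as above: by limma-voom 5.8% fell and 1.94% rose, and at an unadjusted p under 0.05 the shares were 23.4% by limma-trend and 28.4% by limma-voom. Of 3 other cholesterol enzymes none passed either test (unadjusted p under 0.05 in 1 gene by limma-trend and in 2 by limma-voom), and 2 of the 3 had lower means (median -0.22 by limma-trend). LBR, a nuclear envelope protein that catalyses the same reduction as TM7SF2, had 45.7 and 42.7 FPKM in the knockdown libraries, against 42.01 and 41.02 FPKM in the controls. ACAT1, the mitochondrial acetoacetyl-CoA thiolase, had 5.37 and 5.74 FPKM in the knockdown libraries, against 7.51 and 7.32 FPKM in the controls. Both knockdown libraries lay above both controls at LBR, by little, and below both at ACAT1 (limma-voom adjusted p = 0.647 and 0.0681).

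In the list of SREBP processing 1 of 9 genes tested fell by limma-voom (5.8% of all genes). INSIG2, the second retention protein, had 14.9 and 14.7 FPKM in the knockdown libraries, against 22.1 and 25.3 FPKM in the controls (log2 fold change -0.68 ± 0.12, limma-voom adjusted p = 0.0166). Among 12 genes of sterol uptake, traffic and esterification 1 fell (5.8% of all genes), NPC2, which hands cholesterol out of lysosomes, with 12.1 and 14.7 FPKM in the knockdown libraries, against 20.98 and 19.999 FPKM in the controls (log2 fold change -0.62 ± 0.14, limma-voom adjusted p = 0.0283). Of 6 tested genes of the LXR receptors and sterol export none passed limma-trend or limma-voom (2 in each at an unadjusted p under 0.05), and their median was -0.02 by limma-trend. NR1H2, the LXR beta receptor, had 13.9 and 18.05 FPKM in the knockdown libraries, against 15.3 and 14.4 FPKM in the controls, and ABCG1, a cholesterol exporter, had 10.8 and 12.4 FPKM in the knockdown libraries, against 14.6 and 15.97 FPKM in the controls. The 2 groups overlapped at NR1H2 and were apart at ABCG1 (limma-voom adjusted p = 0.0729).

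The list of fatty acid elongation, desaturation and supply held 15 genes tested, of which 4 fell (5.8% of all genes) and none rose (1.94%), although its median was -0.05. FADS2, the delta-6 desaturase of polyunsaturated fatty acids, fell the most, with 21.6 and 25.9 FPKM in the knockdown libraries, against 43.6 and 43.9 FPKM in the controls (log2 fold change -0.89 ± 0.14, limma-voom adjusted p = 0.00713). TECR, the last enzyme of chain elongation, had 19.1 and 24.1 FPKM in the knockdown libraries, against 33.9 and 31.3 FPKM in the controls. ELOVL1, an elongase of very long chains, had 18.3 and 22.96 FPKM in the knockdown libraries, against 30.3 and 29.7 FPKM in the controls. MID1IP1, which promotes polymerisation of acetyl-CoA carboxylase, had 24.04 and 31.7 FPKM in the knockdown libraries, against 39.6 and 39.7 FPKM in the controls. In all 4 both knockdown libraries lay below both controls, and the last 3 had adjusted p of 0.0303, 0.0373 and 0.0483 by limma-voom. FADS2 passed by limma-voom under each alternative tried and each library left out (adjusted p up to 0.0478), and by limma-trend its adjusted p was 0.091. The other 5 genes of these lists that fell, INSIG2, NPC2, TECR, ELOVL1 and MID1IP1, did not pass limma-voom with the sum of reads, nor without FYB1 knockdown 1, control 1 or control 2 (adjusted p 0.053 to 0.329). The 15 genes of the isoprenoid branches, which carry farnesyl groups into dolichol, ubiquinone and protein prenylation, held none that passed by limma-trend or limma-voom (2 by each at an unadjusted p under 0.05), with a median of -0.11. Its most abundant members were ICMT, the methyltransferase of prenylated proteins, with 22.5 and 25.995 FPKM in the knockdown libraries, against 27.9 and 25.8 FPKM in the controls, and NUS1, a dolichol synthesis subunit, with 13.95 and 12.5 FPKM in the knockdown libraries, against 12.4 and 12.7 FPKM in the controls.

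**Figure D4:**
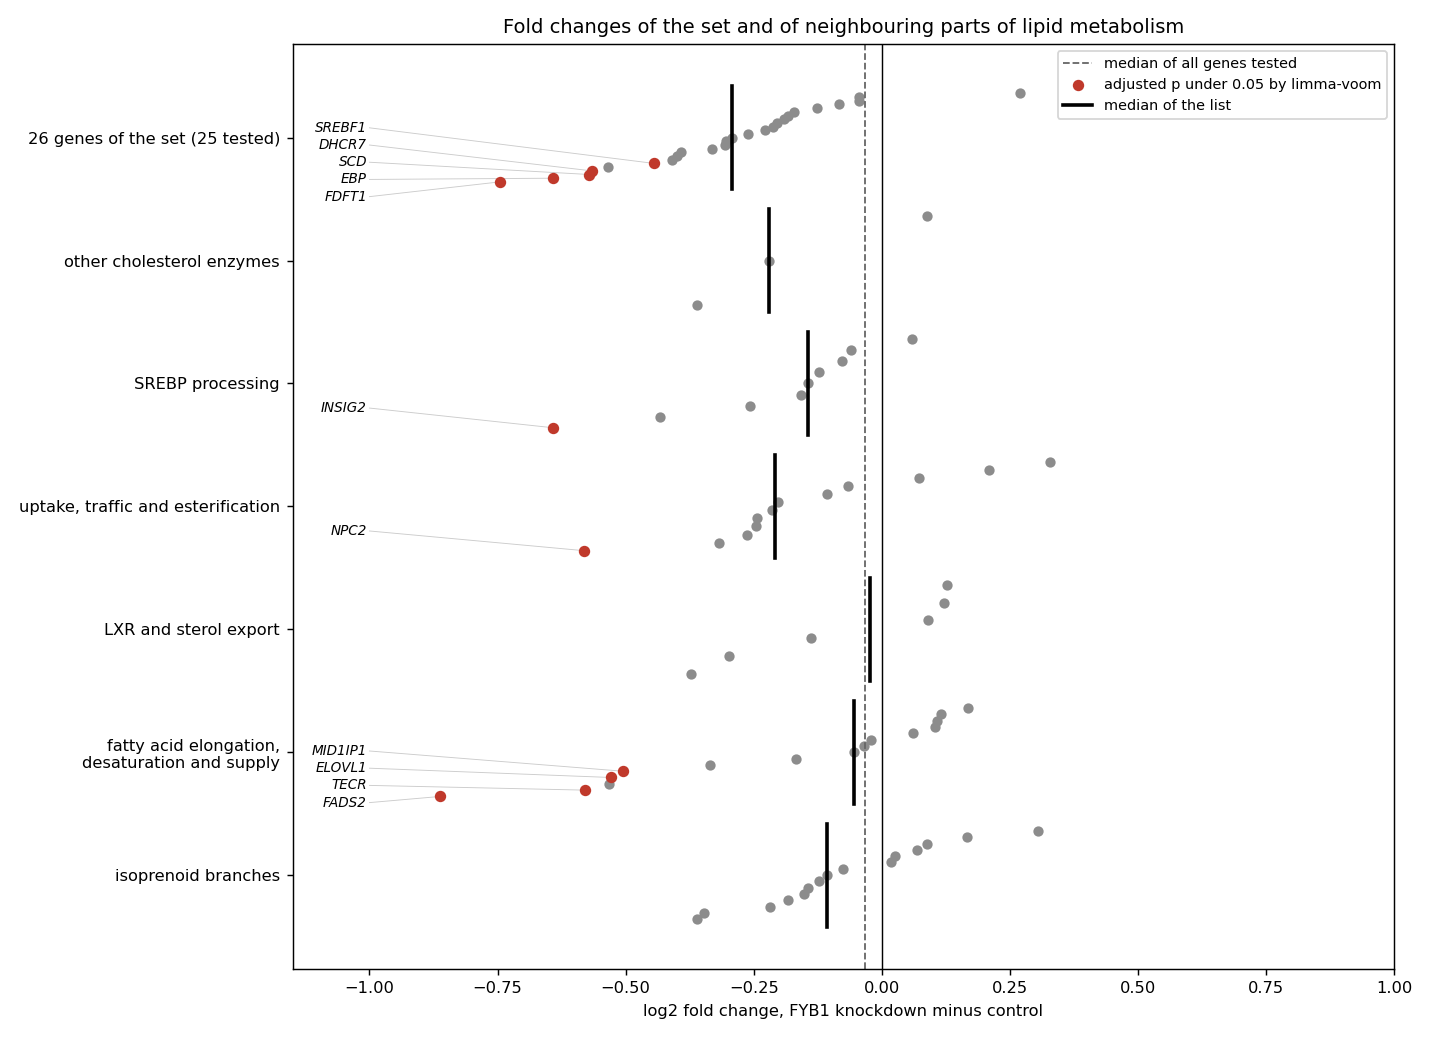
Limma-trend log2 fold changes, FYB1 knockdown minus control, of the 25 genes tested and of 6 neighbouring lists; each point is a gene, black bars are list medians, red points passed limma-voom at an adjusted p of 0.05 and the dashed line is the all-gene median. The set has the lowest median (-0.29), and the named red points, INSIG2, NPC2, FADS2, TECR, ELOVL1 and MID1IP1 outside it, all lie to the left of -0.5.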

How the data were processed

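Messenger RNA of 2 FYB1 knockdown and 2 control libraries was measured by RNA sequencing from Trizol-extracted RNA with an Illumina TruSeq kit, per the labels' protocols. Reads were aligned with HISAT2 2.0.5 to hg38, per the submitters' processing notes. For the counter, the gene models and strand handling, nothing is stated in the labels. The deposited table names no unit. Its values were identified as FPKM, scaled by the authors, because multiplying by the merged exon length of GENCODE 29 and dividing by a constant for each library gave whole numbers, the reads per gene, for 100% of genes (tolerance 0.001).

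Genes averaging 1 FPKM or more were tested with limma-trend (limma 3.58.1, R 4.3.3) on log2(FPKM + 1), a scale that understates changes of low genes, with the group as the only term. Limma-voom was run for the same genes on their recovered reads, taking library totals implied by the deposited scaling. P-values were adjusted by Benjamini-Hochberg over all genes, with a threshold of 0.05. Both tests were also run on simulated reads, drawn independently with the same dispersion for every gene. That setting lacks a difference shared by many genes between libraries of a group, so no conclusion is drawn from it. All 26 genes are named. Of each neighbouring list, up to 4 genes past the threshold by limma-voom unadjusted p are named, or otherwise the 2 with the highest mean. Of T cell markers the 2 most abundant and the 2 lowest are named. Some genes of the list of other cholesterol enzymes are not reported here and were left out of its counts. The genes and lists were chosen with earlier results of these data known. Alternatives covered scaling, filters, pseudocounts, a length and GC correction (mgcv 1.9.3), a replicate block and each library left out.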

Additional observations from a re-analysis of the deposited data

How the results depend on the processing

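With 2 libraries per group, the counts moved with the library left out, the scaling and the block. The limma-trend count over all genes, 27, was 781 with a replicate block, 77 with the sum of reads, 45 with quantile normalization, 181 at a mean of 5 FPKM, 0 with every gene above 0 (3938 at an unadjusted p under 0.05), 167 after the length and GC correction, and 0 to 406 with 1 library left out (0 without either knockdown library, with 2205 and 4841 genes at an unadjusted p under 0.05). The limma-voom count over all genes, 1019, was 461 with the sum of reads, 513 with quantile normalization, and 102 to 3877 with 1 library left out (1072 with the replicate block). Of the 25 genes, limma-trend called 0 under each of these settings, the replicate block included. Limma-voom called 5, with the replicate block 4 (PMVK in place of SCD and SREBF1), 1 with the sum of reads, 1 with quantile normalization, and 0 to 15 with 1 library left out. Same-numbered libraries did not deviate together (correlation -0.21), and a crossed pairing, added after the data were seen, gave 1910 and 4007 genes and 8 and 14 of the 25 by limma-trend and limma-voom. The median of -0.29 was -0.16 with the sum of reads, -0.16 with quantile normalization and -0.41 to -0.20 with 1 library left out. The sign turned for some fold changes by limma-trend. With the sum of reads ACAT2 was 0.083, SREBF2 was 0.049 and FASN was 0.087. With quantile normalization ACAT2 was 0.033, SREBF2 was 0.11, INSIG1 was 0.073, ACLY was 0.10, FASN was 0.11 and ICMT was 0.045. After the length and GC correction ACAT2 was 0.014. With 1 library left out the fold changes that turned ran over these ranges: ACAT2 -0.10 to 0.016, TM7SF2 -0.50 to 0.040, SREBF2 -0.19 to 0.018, FASN -0.11 to 0.021, NR1H2 -0.087 to 0.27, NUS1 -0.0062 to 0.14. The causes were not tested.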
